A study of Zea mays with 46 samples.

Results

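Silk of a maize hybrid was compared with silk of a stock carrying the P1-rr allele of the transcription factor P1, 2 silks of different genetic background. The comparison rested on the RNA-seq libraries that the labels name F1 silk and P1-rr silk, 3 each, which are 6 of the 27 RNA-seq libraries of the series. The libraries were taken by their labels, and the comparison was chosen with earlier results of these data known. The series holds 46 samples on P1 and its target genes, from DNA binding assays and from RNA-seq, and RNA-seq covered 9 groups of 3 libraries.

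The F1 silk came from B73 x A632 plants according to the sample fields, although the growth text names another hybrid, and the sample fields were followed. P1-rr and P1-ww silk are both labelled A619 inbred. B73 and A632 are the inbred parents of the hybrid. All 5 silks were unfertilized, were collected at 0 days after pollination in the field, and pooled 2 plants per library. Libraries were sequenced in pools whose membership is not given, so a pool cannot be told apart from a group. The labels do not say how closely the P1-rr and P1-ww stocks are related beyond the shared inbred name. In leaf protoplasts of the F1 hybrid, P1 was driven by the strong 35S promoter (35S:P1) beside an empty vector, in seedlings of 12 days, and pericarp of P1-rr and P1-ww was taken at 14 days after pollination.

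P1 belongs to the MYB family of transcription factors and activates genes of flavonoid synthesis. Silk uses this pathway to make C-glycosyl flavones such as maysin, which deter feeding by the corn earworm, and pericarp and cob use it to make red phlobaphene pigments. Plants with the P1-rr allele have red pericarp and red cobs, those with P1-ww have both colourless, and the hybrid is set here beside its inbred parents rather than beside a P1 null line.

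The 3 F1 libraries held 36367957 to 41061198 counts and the 3 P1-rr libraries 24346708 to 28224572, so the F1 silk was sequenced more deeply. Levels are given below as CPM, a gene's counts scaled to the total of its library, with the mean ± SD of 3 libraries. Spearman's rho between libraries over all tested genes was 0.993 among the F1 libraries, 0.991 to 0.995 among the P1-rr libraries, and 0.893 to 0.903 between the 2 groups. It was 0.971 to 0.981 between P1-rr and P1-ww silk. Transcripts listed in 1 parent alone gave a check of the hybrid label. Of 93 genes at 5 CPM or more in every B73 library and at 0.1 CPM or less in every A632 library, 92 were above 0.1 CPM in F1 silk, against 52 in P1-rr silk. Of 70 genes read in A632 and not in B73, 68 were above 0.1 CPM in F1 silk and 42 in P1-rr silk. None of the identifiers used for genes in the counts is in the reference table (0 matches). Genes therefore appear without a name or role. Naming rules by size of change give at most 2 per direction, beside the leading genes of the lists by level and genes singled out after their values were seen. The gene p1 itself and tissue markers were not looked up here.

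Between the 2 silks, 14989 of 25250 tested genes were called, 7614 higher and 7375 lower in F1 silk (edgeR's quasi-likelihood F test, with p under 0.05 after Benjamini-Hochberg adjustment). This is 59.4% of the genes tested, 30.2% higher and 29.2% lower, and with DESeq2 size factors the balance turned to 7394 higher and 7621 lower. At a change of 2-fold or more, 4168 genes were higher (16.5%) and 3566 lower (14.1%), 30.6% together. The median absolute log2 change of the called genes was 1.04, and 10% of them exceeded 4.83. Reads of all lines were aligned to the B73 genome, so a transcript that differs from B73 or is missing in another line can be listed low whatever its expression, and this was not tested. With all 27 libraries of the series in 1 fit, 8544 genes were called, 4510 higher and 4034 lower. After every library was thinned at random to 20490591 counts, the total of the smallest silk library, 7192 genes were higher and 7068 lower of 24277 tested.

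Among genes that passed the filter on low counts, the share called hardly depended on their level, whereas the size of the change did. A gene with a low mean can pass this filter through 1 silk where it is high, so the lowest class depends on the filter. Without the filter, 15378 of 33668 genes were called at all levels together. Of 4227 genes with a mean under 1 CPM over the 6 libraries, 57.9% were called, with a median absolute log2 change of 3.43. Of 1891 genes with a mean over 100 CPM, 61.5% were called, with a median absolute log2 change of 0.66. Changes of 2-fold or more were thus called in 57.1% of the lowest class and in 16.2% of the highest. Among the 14474 genes read at 5 CPM or more in each of the 6 libraries, 3974 were higher and 4191 lower in F1 silk. Of these, 1051 were higher and 811 lower by 2-fold or more, while 39 and 17 passed 8-fold. Their log2 changes ran from -6.17 to 4.72. This count leaves out the genes that were low in either silk.

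Setting the other silk comparisons beside this one places its size. P1-rr against P1-ww silk gave 3140 called genes (12.4%), 1481 higher and 1659 lower. F1 against P1-ww silk gave 16302 (64.6%), F1 against B73 gave 10733 (42.5%), and F1 against A632 gave 11925 (47.2%). These comparisons share libraries with the one described here, and their counts are given side by side only.

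Among called genes with 5 CPM or more in the higher silk and no overlap of libraries, the largest differences were of genes listed in 1 silk and not in the other. Zm00001d035400 stood at 124, 135 and 157 CPM in the 3 F1 libraries and had 0 counts in all 3 P1-rr libraries. It was also at 0 in all 3 P1-ww silk libraries and in the 6 pericarp libraries, but reached 187 ± 9.65 CPM in B73 silk and 237 ± 94.9 CPM in A632 silk. Against a floor of 3 counts over the P1-rr group (0.0382 CPM), it was at least 3626-fold higher in F1 silk (edgeR adjusted p = 1.86e-08). Zm00001d052011 stood at 102, 126 and 116 CPM in F1 silk and at 0 in all P1-rr libraries, at least 3019-fold higher (edgeR adjusted p = 3.35e-10). Its level was 121 ± 23.7 CPM in B73 silk and 0.142 ± 0.114 CPM in A632 silk.

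In the other direction, Zm00001d029360 had 0 counts in the 3 F1 libraries and stood at 33.8, 41.0 and 35.6 CPM in P1-rr silk, at least 1394-fold lower in F1 against a floor of 0.0263 CPM (edgeR adjusted p = 9.25e-10). P1-ww silk held 0.341 ± 0.0628 CPM of it, P1-rr pericarp 91.5 ± 6.18 CPM and P1-ww pericarp 0.900 ± 0.213 CPM. The transcript was thus high in both P1-rr tissues and low in both P1-ww tissues, and 35S:P1 protoplasts of the hybrid had 0 counts. Zm00001d029829 was at 0 in F1 silk and at 32.6, 33.2 and 32.4 CPM in P1-rr silk, at least 1246-fold lower in F1 (edgeR adjusted p = 1.24e-09). P1-ww silk had 38.1 ± 1.59 CPM of Zm00001d029829, so this gene was high in both A619 silks. These 4 genes were picked as the largest called changes among genes whose libraries do not overlap.

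A level of 5 CPM or more in every library of 1 silk together with 0.1 CPM or less in every library of the other was met by 108 genes for F1 silk and by 53 for P1-rr silk. These genes were chosen by the compared levels, so they are described without a test. The 108 genes read in F1 silk alone had a median of 10.8 CPM there (quartiles 7.95 and 19.6, highest 229), and 59 of them had 0 counts in all 3 P1-rr libraries. Of the 108, 92 were at 0.1 CPM or less in every P1-ww library too. Both parents held 61 of them at a mean of 1 CPM or more, B73 alone held 32, A632 alone 14 and neither parent 1.

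The F1 level of these genes was also set against the parents in which they were read. The genes were chosen at 5 CPM or more in every F1 library, so the ratios depend on that choice. For the 32 genes read in B73 alone, the F1 level was a median 0.583 of the B73 level (quartiles 0.478 and 0.707). For the 14 read in A632 alone it was 0.485 of the A632 level (quartiles 0.380 and 0.560). For the 61 read in both parents it was 0.969 of their mean (quartiles 0.784 and 1.18).

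The gene below 1 CPM in both parents, Zm00001d037681, was singled out after its values were seen. It stood at 13.4, 70.5 and 39.7 CPM in F1 silk, at 0.0391 ± 0.0677 CPM in B73, at 0.273 ± 0.0872 CPM in A632 and at 0.0118 ± 0.0205 CPM in P1-rr silk. The 3 F1 libraries were spread over a wide range, but the lowest of them was far above every library of the other silks. Also singled out after their values were seen were the 2 genes of the 108 that P1-ww silk held at 5 CPM or more in every library, Zm00001d036825 and Zm00001d021845. Zm00001d021845 stood at 8.06, 8.28 and 7.24 CPM in F1 silk, at 7.08 ± 1.96 CPM in P1-ww silk and at 0.0392 ± 0.0412 CPM in P1-rr silk. The P1-rr and P1-ww stocks therefore differed there although both carry the A619 label. In pericarp the same gene had 0.0265 ± 0.0459 CPM in P1-rr and 14.6 ± 2.65 CPM in P1-ww.

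**Figure D1:**
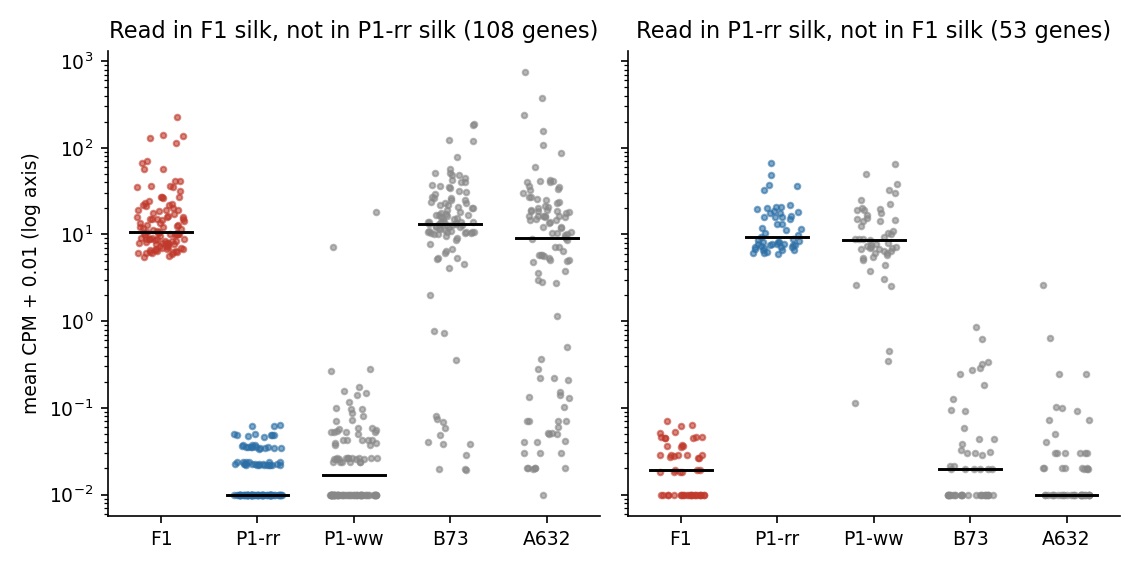
Mean CPM plus 0.01 on a log axis in the 5 silks for the 108 genes read in F1 and not in P1-rr silk (left) and the 53 read in P1-rr and not in F1 silk (right); each point is a gene and each line the median. The left set had medians of 13.2 CPM in B73 and 9.20 CPM in A632 silk. The right set had a median of 8.70 CPM in P1-ww silk and at most 0.841 CPM in B73 and 2.59 CPM in A632 silk.

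The 53 genes read in P1-rr silk alone had a median of 9.26 CPM there (quartiles 7.48 and 17.5, highest 66.3). They were read in neither parent of the hybrid in nearly all cases, with 52 under a mean of 1 CPM in both and 38 at 0.1 CPM or less in every parental library. The 53 were chosen at 0.1 CPM or less in every F1 library, so low levels in the parents are not independent of that choice. P1-ww silk held 37 of the 53 genes at 5 CPM or more in every library, and its median over the 53 was 8.70 CPM. The plot of the genes read in 1 silk alone shows both patterns. Among the 53, P1-ww silk was under 1 CPM for 3 genes, singled out here after their values were seen, namely Zm00001d029360, Zm00001d023399 and Zm00001d026488. Zm00001d023399 stood at 13.1, 8.42 and 9.45 CPM in P1-rr silk, at 0 in F1, B73 and A632 silk and at 0.105 ± 0.0520 CPM in P1-ww silk. It was at 0.0275 ± 0.0239 CPM in P1-rr pericarp, so its level was high in P1-rr silk and low in P1-rr pericarp. Zm00001d026488 stood at 7.72, 6.98 and 8.60 CPM in P1-rr silk, at 0.0183 ± 0.0318 CPM in F1 silk and at 52.9 ± 39.1 CPM in P1-rr pericarp. It was also raised by P1 in F1 protoplasts (edgeR adjusted p under 0.05), with 38.6 ± 22.3 CPM under 35S:P1 and 7.45 ± 5.00 CPM under the empty vector.

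Genes higher under 35S:P1 in protoplasts, or higher in P1-rr than in P1-ww pericarp, were then read in the 2 silks. The protoplast list holds the 704 genes higher by 4-fold or more under 35S:P1 than under the empty vector, with the replicate number as a block, and the pericarp list the 595 genes higher by 2-fold or more in P1-rr than in P1-ww pericarp (edgeR adjusted p under 0.05 for both). Neither list used a silk library, but the protoplasts are of the hybrid and the pericarp list comes from the same stock as the P1-rr silk. Of the protoplast list, 543 genes passed the filter on low counts in silk, and 230 were higher and 134 lower in F1 silk, which is 42.4% and 24.7% beside 30.2% and 29.2% of all genes tested. Their median log2 change was 0.35, against 0.01 over all genes. Of the 572 tested genes of the pericarp list, 201 (35.1%) were higher and 165 (28.8%) lower, with a median log2 change of 0.11, shares close to those of all genes. In bulk tissue, fewer cells of a type and less RNA per cell cannot be told apart.

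More of the tested genes were higher than lower in F1 silk at each size of the rise in protoplasts, a split made after the data were seen. Of all genes tested, 30.2% were higher and 29.2% lower. Of the 402 tested genes with a protoplast rise of 2 to 4 on the log2 scale, 159 were higher (39.6%) and 99 lower (24.6%) in F1 silk, with a median log2 change of 0.25. For the 95 with a rise of 4 to 6 the counts were 42 higher (44.2%) and 29 lower (30.5%), with a median log2 change of 0.57. For the 46 with a rise over 6 they were 29 higher (63.0%) and 6 lower (13.0%), with a median of 1.61. Differences between these classes were not tested. Made without the block and with no minimum fold, the protoplast list holds 35 genes. Of the 29 tested, 21 were higher (72.4%) and 1 lower (3.45%) in F1 silk. With the block and no minimum fold the list holds 1305 genes. Of the 1110 tested, 441 were higher (39.7%) and 295 lower (26.6%).

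**Figure D2:**
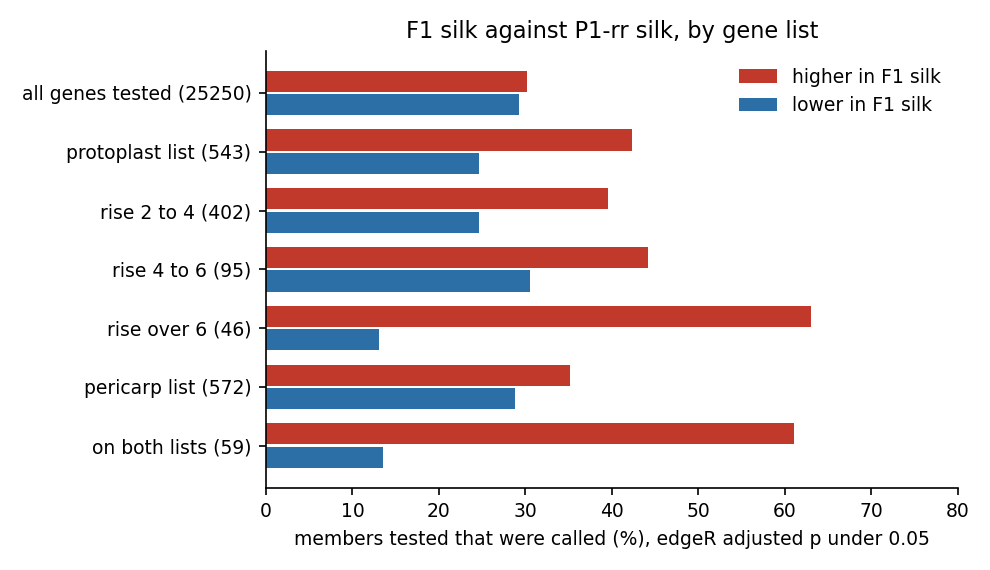
Share of tested list members called higher (red) or lower (blue) in F1 silk than in P1-rr silk, in percent, with the number tested in brackets; the 3 bars below the protoplast list split it by the log2 rise in protoplasts. The shares higher were 30.2% for all genes, 63.0% for protoplast rises over 6 and 61.0% for genes on both lists.

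The 60 genes on both lists, raised by P1 in protoplasts and higher in P1-rr pericarp, had a higher median level in both silks than the genes of either whole list. In F1 silk 36 of the 59 that passed the filter were higher than in P1-rr silk (61.0%), 8 were lower (13.6%) and 15 were not called, with a median log2 change of 1.15. Of all genes tested, 30.2% were higher and 29.2% lower. At 2-fold or more, 30 of the 59 were higher and 7 lower, beside 16.5% and 14.1% of all genes tested. With thinned libraries the counts were 35 higher and 8 lower. The median level of the 60 genes was 76.7, 66.3 and 72.2 CPM in the 3 F1 libraries and 22.8, 28.8 and 22.8 CPM in the 3 P1-rr libraries, so the F1 libraries lay above all P1-rr libraries. It was 3.88 ± 0.278 CPM in P1-ww silk, 9.57 ± 1.86 CPM in B73 silk and 15.5 ± 3.45 CPM in A632 silk.

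The 36 higher genes had a median log2 change of 1.95, a median of 284 CPM in F1 silk and 74.0 CPM in P1-rr silk. The 8 lower genes had a median of 0.965 CPM in F1 silk and 10.7 CPM in P1-rr silk, and their log2 changes ran from -8.44 to -0.95.

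**Figure D3:**
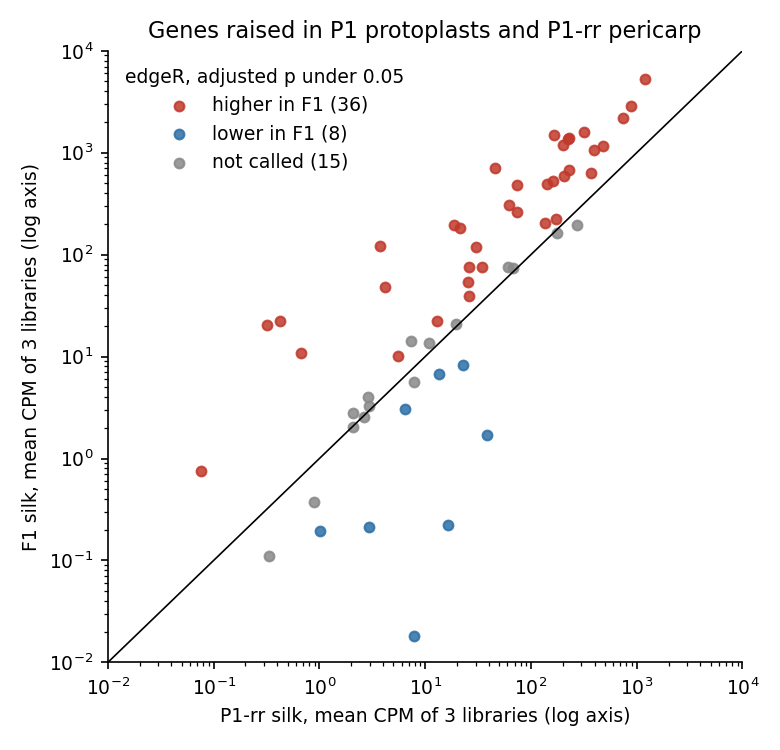
Mean CPM of 3 libraries in F1 silk (vertical, log axis) against P1-rr silk (horizontal, log axis) for the 59 tested genes on both lists; the line marks equal levels and colours the edgeR call. The 36 genes higher in F1 reach 5315 CPM, while the 8 lower ones lie at 8.33 CPM or less in F1 silk.

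Zm00001d044122 was the most abundant called gene of the set in these silks. It stood at 5719, 4816 and 5411 CPM in F1 silk and at 969, 1552 and 1108 CPM in P1-rr silk. The F1 libraries all lay above the P1-rr libraries, by a log2 change of 2.19 ± 0.37 (SE; edgeR adjusted p = 0.000205). P1-ww silk held 8.18 ± 1.03 CPM, B73 silk 130 ± 48.7 CPM and A632 silk 424 ± 213 CPM, so the hybrid stood above both of its parents and above both A619 silks. P1-rr pericarp had 253 ± 126 CPM and 35S:P1 protoplasts 191 ± 50.3 CPM of it, beside 4.20 ± 1.32 and 1.79 ± 1.43 CPM in their controls.

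Zm00001d037383 was likewise highest in F1 silk, then in P1-rr silk, then in the parents, and lowest in P1-ww silk. It stood at 2927, 2700 and 2916 CPM in F1 silk and at 736, 1123 and 765 CPM in P1-rr silk, a log2 change of 1.75 ± 0.36 (SE; edgeR adjusted p = 0.000805). Again no F1 library overlapped the P1-rr libraries. B73 silk had 261 ± 88.9 CPM, A632 silk 161 ± 91.1 CPM and P1-ww silk 14.3 ± 2.39 CPM.

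Of the 8 genes lower in F1 silk, Zm00001d003046 was the most abundant. It stood at 1.92, 1.56 and 1.63 CPM in F1 silk and at 22.0, 70.7 and 22.7 CPM in P1-rr silk, a log2 change of -4.44 ± 0.42 (SE; edgeR adjusted p = 9.69e-07). P1-rr replicate 2 was the highest, and all P1-rr libraries lay above the F1 libraries. The gene was at 0.00978 ± 0.0169 CPM in B73 silk and 0.0205 ± 0.0178 CPM in A632 silk, and its level in P1-rr pericarp was 1054 ± 307 CPM. Hybrid silk was therefore the silk with the second highest mean, before P1-ww with 1.17 ± 0.168 CPM. F1 silk was not called different from P1-ww silk for this gene (log2 change 0.53 ± 0.44, SE; edgeR adjusted p = 0.312).

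Zm00001d029083 stood at 7.29, 4.65 and 13.1 CPM in F1 silk and at 24.2, 13.6 and 30.1 CPM in P1-rr silk. The highest F1 library lay just under the lowest P1-rr library, and the log2 change was -1.40 ± 0.38 (SE; edgeR adjusted p = 0.00552). Here the parents were above both silks, with 38.5 ± 11.7 CPM in B73 and 123 ± 28.3 CPM in A632, and P1-ww silk was at 0.935 ± 0.265 CPM.

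**Figure D4:**
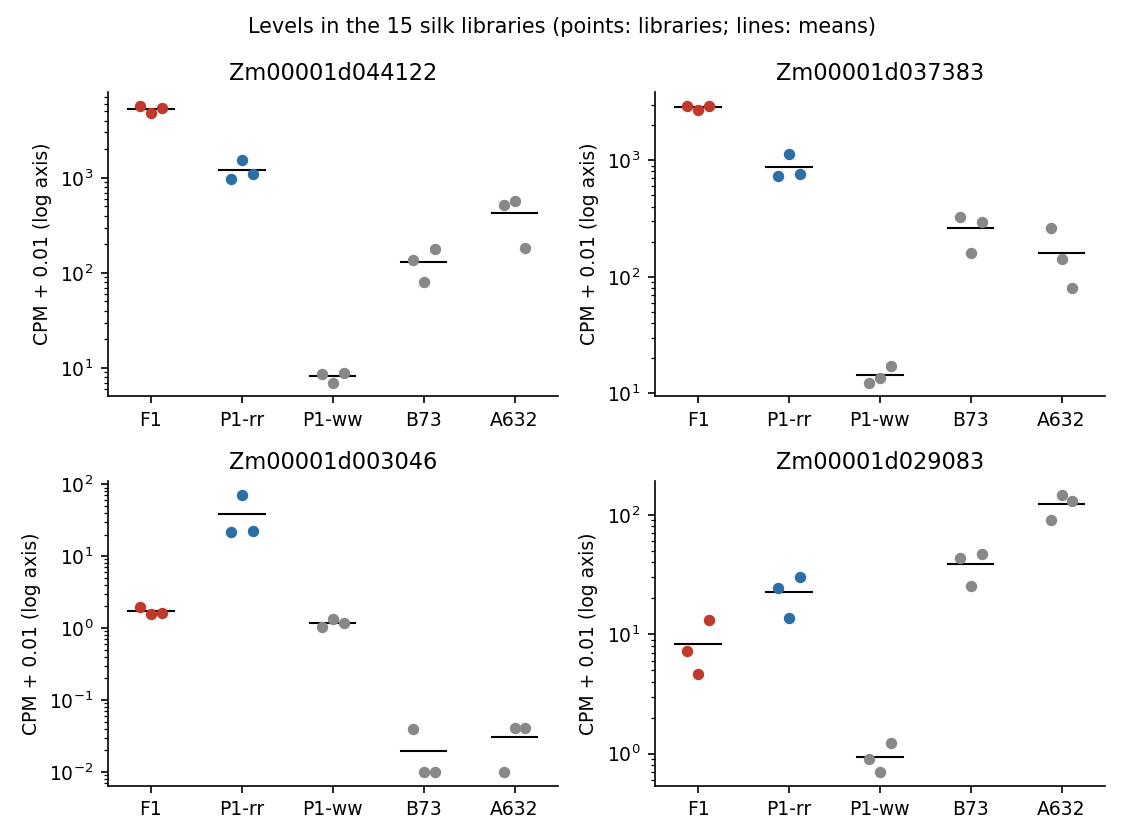
CPM plus 0.01 on a log axis in the 15 silk libraries for 4 genes on both lists, 2 higher (top) and 2 lower (bottom) in F1 than in P1-rr silk; points are libraries and lines the means of 3. In the upper panels the 5 silks keep 1 order of F1 and P1-rr above the parents, with P1-ww lowest, while in the lower right panel A632 was highest with a mean of 123 CPM.

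By mean level, F1 silk was the highest of the 5 silks for 37 of the 60 genes, P1-rr silk for 11, a parent for 11 and P1-ww silk for 1. F1 silk was first and P1-rr silk the second for 25 of them, and these silks held the 2 top places for 32. P1-ww silk was the lowest for 27, and 18 genes had a mean under 1 CPM there. These places were not counted over all genes, so they are not shown to be particular to the 60. The 60 were chosen in part as higher in P1-rr than in P1-ww pericarp of the same stocks. The places of P1-rr and P1-ww silk are therefore not independent of that choice. A level of 100 CPM or more was reached by 27 genes in F1 silk, 19 in P1-rr silk and 5 in P1-ww silk. Leading genes of the single lists did not all follow this order. Zm00001d023984, the most abundant gene of the protoplast list in these silks, stood at 3801, 3951 and 3884 CPM in F1 silk and at 5304, 6101 and 5070 CPM in P1-rr silk. Its libraries did not overlap, but the log2 change of -0.45 ± 0.24 (SE) was not called (edgeR adjusted p = 0.113), and it passed in the 6 libraries fitted alone (edgeR adjusted p = 0.00390). Zm00001d021435, which came second by level in the pericarp list, had 3141, 3251 and 3591 CPM in F1 silk and 2420, 3020 and 2622 CPM in P1-rr silk. This log2 change of 0.36 ± 0.24 (SE) was not called either (edgeR adjusted p = 0.209), and passed in the 6 libraries alone (edgeR adjusted p = 0.0230).

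The levels of F1 and P1-rr silk were also read against the silks nearest in background, F1 over the mean of its parents on the log scale and P1-rr over P1-ww. These 2 rises share no library. F1 silk differed from the mean of its parents for 10272 genes (40.7% of those tested), with 5953 (23.6%) above and 4319 (17.1%) below. A gene near 0 in 1 parent can lie above this log-scale mean without being above the other parent. Zm00001d036825, for example, was 3.32 above the mean on the log2 scale but at -0.76 against B73. How many of the 5953 genes were of this kind was not counted. P1-rr silk was above P1-ww silk for 1481 (5.87%) and below for 1659 (6.57%). Both rises were called for 807 genes, which is 13.6% of the genes that rose in F1 and 54.5% of those that rose in P1-rr. F1 below the mean of its parents and P1-rr below P1-ww were called together for 819 genes, 18.96% and 49.4% of the respective genes. Opposite calls were fewer, with 157 genes higher in F1 and lower in P1-rr and 83 the other way. At 2-fold or more, F1 silk was above the mean of its parents for 2653 genes (10.5%) and P1-rr silk above P1-ww for 595 (2.36%). At that size 217 genes rose in both, 8.18% and 36.5% of the respective genes. Over all tested genes the rises had a Pearson r of 0.24 and a Spearman rho of 0.36 across genes, which are not independent replicates, and over the 59 tested genes on both lists 0.58 and 0.69.

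The genes on both lists rose in both silks by similar medians. The F1 rise over the parental mean had a median log2 of 2.07, with 49 genes called higher (83.1%) and 1 lower (1.69%). The P1-rr rise over P1-ww had a median of 2.11, with 41 called higher (69.5%) and 0 lower by edgeR. The count lower in P1-rr silk was also 0 at an unadjusted p under 0.05 and by the Wald test of DESeq2. Of all genes tested, 23.6% were above and 17.1% below the parental mean in F1 silk. For P1-rr over P1-ww silk these shares were 5.87% and 6.57%. By their estimates, 47 of the 59 genes were above the reference in both silks, 6 above the parental mean alone, 4 above P1-ww alone and 2 in neither silk. The pericarp list, with 572 genes tested, was chosen in the same P1-rr and P1-ww stocks. It had 156 genes above (27.3%) and 21 below (3.67%) P1-ww in P1-rr silk. In F1 silk 215 were above (37.6%) and 53 below (9.27%) the parental mean.

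The difference between the 2 rises was tested as 1 contrast over the 15 silk libraries. It was called for 2947 of 25250 genes (11.7%), with 1952 (7.73%) towards F1 and 995 (3.94%) towards P1-rr (edgeR adjusted p under 0.05). A difference towards 1 silk can come from a rise there, from a fall in the other, or from both. The counts moved with single libraries, to 1327 and 645 without P1-rr replicate 1 and to 1447 and 596 without P1-ww replicate 2, and with all 27 libraries in 1 fit to 511 and 135. The Wald test of DESeq2 called 1578 genes towards P1-rr. By estimate alone, 34 of the 59 tested genes on both lists had the larger rise in F1 silk. The difference was called for 13 of the 59 towards F1 (22.0%) and for 12 towards P1-rr (20.3%). The reference levels of these groups differed. P1-ww silk had a median of 76.2 CPM for the 13 genes, all of them at 5 CPM or more there, and of 3.37 CPM for the 12.

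**Figure D5:**
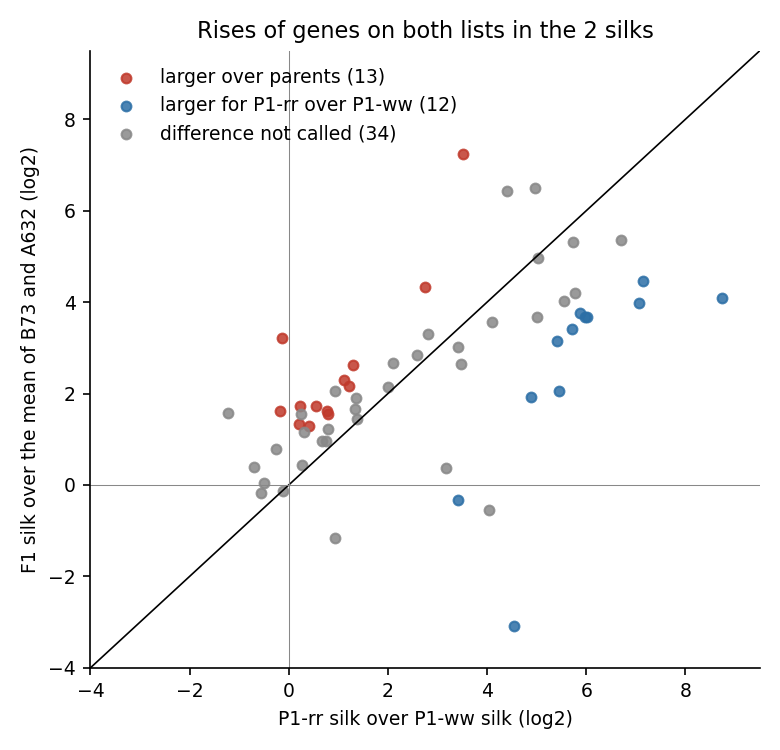
Log2 rise of F1 silk over the mean of B73 and A632 (vertical) against the log2 rise of P1-rr over P1-ww silk (horizontal) for the 59 tested genes on both lists; the line marks equal rises and colours the edgeR call of their difference. The 12 genes called with the larger P1-rr rise lie to the right, up to a P1-rr rise of 8.73. The 13 called with the larger F1 rise lie above the line.

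For the most abundant genes, the level and the rise pointed in different directions. Of the 10 genes on both lists with over 1000 CPM in F1 silk, 7 were called with the larger rise in P1-rr silk. Zm00001d044122 rose by 4.46 ± 0.31 (log2, SE) in F1 over its parents and by 7.14 ± 0.48 in P1-rr over P1-ww, a difference of -2.68 ± 0.50 (edgeR adjusted p = 0.00370), although its level was higher in F1 silk. Zm00001d037383 rose by 3.76 ± 0.30 and 5.87 ± 0.43, a difference of -2.10 ± 0.48 (edgeR adjusted p = 0.0115). P1-ww silk held less of both transcripts than B73 or A632 silk did. Of the 12 genes called with the larger P1-rr rise, 9 were higher in F1 than in P1-rr silk and 3 lower.

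Among genes with a mean of 5 CPM or more over the 15 silk libraries, the 2 largest called differences of the rises in each direction were those of transcripts nearly missing from 1 or more of the 5 silks. Zm00001d036825 stood at 10.7, 13.8 and 10.5 CPM in F1 silk, at 0.0709, 0.0411 and 0 CPM in P1-rr silk and at 19.1, 19.1 and 15.9 CPM in P1-ww silk. B73 silk had 20.3 ± 1.38 CPM and A632 silk 0.0601 ± 0.0604 CPM, so it was read in 1 parent and in 1 of the A619 silks. Zm00001d004342 stood at 32.8, 99.3 and 66.1 CPM in F1 silk, at 13.2, 9.41 and 17.8 CPM in P1-rr silk and at 171 ± 27.4 CPM in P1-ww silk. The F1 libraries lay above the P1-rr libraries and below the P1-ww ones. B73 silk held 0.0973 ± 0.0362 CPM and A632 silk 48.1 ± 37.4 CPM. F1 silk was not called different from A632 silk (log2 change 0.34 ± 0.54, SE, edgeR adjusted p = 0.632). On the other side, Zm00001d029243 stood at 10.8, 12.8 and 12.7 CPM in F1 silk and at 11.8, 14.1 and 11.4 CPM in P1-rr silk, which overlap (log2 change 0.01 ± 0.17, SE; edgeR adjusted p = 0.962). It was at 0.0317 ± 0.0275 CPM in P1-ww silk and at 8.77 ± 1.75 and 19.9 ± 0.914 CPM in B73 and A632 silk, so a rise over P1-ww was read where F1 and P1-rr silk had like levels. The other gene named on that side was Zm00001d029360, with 1 count in all B73 and 1 in all A632 libraries, so its difference rests on references near 0.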

How the data were processed

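RNA-seq of 5 silks, 2 pericarps and 2 protoplast groups was used. The authors deposited raw read counts per gene for 39005 genes and 27 libraries. Per the submitters' processing notes, the tools were bcl2fastq 2.20.0, FastQC, Trimmomatic, HISAT2 2.0.4 and Bowtie2 2.3.4.1, with B73 RefGen_v4 as the genome. Not given in the sources used here are the counting tool, the annotation and the use of strand, so copies that share reads and overlapping genes are uncertain.

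Counts of the 15 silk libraries were fitted together with edgeR 4.0.16 (R 4.3.3): TMM factors, filterByExpr, a quasi-likelihood test, two-sided, adjusted p (Benjamini-Hochberg) under 0.05. The tests were checked on simulated data. Lists were fitted on the 6 protoplast and 6 pericarp libraries; protoplast libraries of 1 number deviated together (r across genes 0.54, 0.66 and 0.82), so the number was a block there, a pairing from the data and not from the labels. Replicates differed beyond sampling noise (chi-square per degree of freedom 10.3 to 22.7 within F1 and P1-rr silk). P-values measure the spread between pools of 2 plants. Floors cover counting error only.

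Named genes were the largest called changes with libraries that do not overlap and 5 CPM or more in the higher group, the leading genes of the lists by level, and, at a mean of 5 CPM or more over the silk libraries, the largest called differences of rises. The members, lists and comparisons were chosen with earlier results of these data known, and the set of genes on both lists, the split by protoplast rise and the thinning of libraries after the data were seen. The 16 peak files and the lists of genes of known function were not used here, since positions and names for these identifiers were not at hand.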

Additional observations from a re-analysis of the deposited data

Results flagged for a closer look

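For 9 of the named genes, the rise of F1 silk over the mean of its parents differed from the rise of P1-rr silk over P1-ww silk in a test of the difference itself (edgeR's quasi-likelihood F test, with p under 0.05 after Benjamini-Hochberg adjustment). Zm00001d036825, Zm00001d004342, Zm00001d029243 and Zm00001d029360 were named as the largest called differences of rises, so their calls follow from that choice. Zm00001d021845 was singled out after its values were seen. Of all genes tested, 11.7% were called. On the log2 scale the F1 rise minus the P1-rr rise was 12.1 for Zm00001d036825 (edgeR adjusted p = 5.27e-09), 8.57 for Zm00001d004342 (edgeR adjusted p = 3.36e-05) and 7.79 for Zm00001d021845 (edgeR adjusted p = 2.44e-07). P1-rr silk lay below P1-ww silk by a log2 change of -8.80, -3.72 and -7.45 for these genes in turn, and the F1 rise was 3.32, 4.85 and 0.35, the last not called (edgeR adjusted p = 0.173). The F1 rises of Zm00001d036825 and Zm00001d004342 rest on 1 parent near 0. Against the other parent, F1 silk was at -0.76 for Zm00001d036825 (B73) and at 0.34, not called, for Zm00001d004342 (A632). Zm00001d036825 and Zm00001d021845 were read in P1-ww silk and pericarp and at under 0.1 CPM in P1-rr silk and pericarp. The difference was -2.10 for Zm00001d037383, -2.31 for Zm00001d052673 and -2.68 for Zm00001d044122, all of them genes on both lists and all higher in F1 than in P1-rr silk. It was -7.63 for Zm00001d029083 (edgeR adjusted p = 3.06e-06), which lay below its parents in F1 silk and above P1-ww in P1-rr silk. It was -8.61 for Zm00001d029243 (edgeR adjusted p = 2.31e-08). For Zm00001d029360 it was -8.47 (edgeR adjusted p = 0.00673), a value that rests on 1 count in B73 and 1 in A632.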

How the results depend on the processing

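The balance of genes higher and lower in F1 silk, 7614 to 7375, turned to 7394 higher and 7621 lower with DESeq2 size factors in edgeR and to 7564 and 7787 in the Wald test of DESeq2. Of 23 results on named genes 17 kept direction and call under every alternative. With all 27 libraries in 1 fit, 8544 genes were called between F1 and P1-rr silk (4510 higher, 4034 lower), 99 genes of the pericarp list were lower, and the difference of rises was called for 646 genes (511 towards F1, 135 towards P1-rr). The Wald test of DESeq2 1.42.0 gave 1578 genes towards P1-rr. Leaving out 1 replicate in turn gave 13314 to 13967 called genes, 1972 to 3913 differences of rises (1327 to 2621 towards F1, 596 to 1292 towards P1-rr), and for the genes on both lists 34 to 35 higher and 6 to 8 lower. The protoplast list made without the block and with no minimum fold had 72.4% higher and 3.45% lower in F1 silk. With the block and no minimum fold, the shares were 39.7% and 26.6%. Genes read in F1 silk alone numbered 208 at 2 CPM or more against 0.1 or less and 194 at 5 CPM or more against 0.5 or less, and those read in P1-rr silk alone 163 and 105.

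The F1 and P1-rr libraries share replicate numbers, but same-numbered libraries hardly deviated together (r across genes 0.00, 0.06 and 0.10). The number was therefore not a block in the main fit. These values cannot show whether same-numbered libraries shared a day or a pool. With the replicate number as a block, 14822 genes were called (7514 higher, 7308 lower), and 2744 differences of rises. Not every library correlated best with its own number.

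The cause of these shifts was not tested. Zm00001d015852, a leading gene of the protoplast list that was not called (log2 change -0.04), ran from -0.084 to 0.025 with 1 replicate left out and changed sign to 0.025 without F1 replicate 2 and to 0.0061 without P1-rr replicate 2. Zm00001d020910, a leading gene of the pericarp list called higher in F1 silk (0.40; edgeR adjusted p = 0.0233), lost its call with all 27 libraries, without F1 replicate 1 and without P1-rr replicate 1 (edgeR adjusted p = 0.426, 0.111 and 0.0970). The difference of rises of Zm00001d029360 lost its call without B73 replicate 3 or A632 replicate 3, which hold its only counts in the parents (edgeR adjusted p = 1.00 in both). Zm00001d024767 was called in the 6 libraries alone, with a log2 change of -0.30. Depth limits genes near the floor of 0.0263 CPM in F1 and 0.0382 CPM in P1-rr silk.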
